A study of Canis lupus familiaris with 6 samples.

Results

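Transcripts of 10 genes of a vesicle docking system were compared between canine kidney epithelial cells grown as cysts and as a monolayer. The genes were the synaptotagmin-like genes SYTL1, SYTL2, SYTL3 and SYTL5, the small GTPase genes RAB27A, RAB27B, RAB3A, RAB3B and RAB3D, and RPH3AL. They were taken by symbol, as every probe set whose only annotated gene was one of these 10. This gave 16 probe sets out of 42924, for 10 of 15115 named genes; 5 genes had 1 probe set and 5 had 2 or more. Cells were MDCKII, an established line of Madin-Darby canine kidney epithelium that polarizes in culture. In the 3D group (3 arrays) they were plated on Matrigel, an extract of basement membrane, with 100 µl spread in a 60 mm dish, under medium with 2% Matrigel, and formed cysts. In the 2D group (3 arrays) the same line made a confluent polarized monolayer on plastic without Matrigel. Both groups were harvested 36 h after plating, and no genotype, drug or transgene distinguishes them in the labels. The study asked which genes are raised in 3D, as candidates for lumen formation.

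Rab GTPases mark vesicles and, in their GTP-bound form, recruit effector proteins that tether the vesicle to its target. Rab27 and Rab3 are the Rabs best known for regulated secretion, from melanosomes and lytic granules to exocrine granules. Synaptotagmin-like proteins carry an amino-terminal domain that binds Rab27 and a pair of C2 domains that bind membrane phospholipids, so that they can hold a Rab27 vesicle at the plasma membrane. In epithelial tubules and cysts this system is known for delivery of vesicles to the apical surface that lines the lumen. SYTL4, another gene of the family, was not analysed here.

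The deposited values are log2 probe set levels on 2 scales. On the 4 arrays of replicates 2 and 3 the median level was 7.06 to 7.08 and the lower quartile 5.64 to 5.67, whereas in replicate 1 the 3D and 2D arrays had medians of 5.26 and 5.42 and lower quartiles of 3.38 and 3.52. The tests below rest on replicates 2 and 3 (n = 2 arrays of each group), and for replicate 1 the 3D minus 2D difference is given untested. A probe set was called when its p from limma, a linear model that pools variance information across probe sets, was under 0.05 after adjustment over all of them. Across all probe sets the quartiles of the 3D minus 2D difference were -0.79 and 0.51 in replicate 1, against -0.155 and 0.135 in replicates 2 and 3, so replicate 1 spreads far more widely. Epithelial markers were bright: EPCAM had log2 levels of 13.68 and 13.77 in 3D and 13.58 and 13.61 in 2D. Of 9 epithelial markers 7 lay above the upper quartile on all 4 arrays, against 0 of 8 fibroblast, 0 of 5 endothelial and 0 of 5 leukocyte markers. Of 5 kidney tubule markers 1 lay above it on all 4 arrays and 3 above the median. The epithelial marker CLDN2 was itself called higher in 3D, by 3.49-fold (limma adjusted p = 0.0256). Poly-A spike-in controls averaged log2 levels of 9.09 and 8.35 on 3D replicates 2 and 3, against 8.23 and 8.27 on the 2D arrays. Hybridization controls averaged 11.16 and 11.03 in 3D, against 10.79 and 10.86 in 2D. The 3' minus 5' log2 difference of the GAPDH control was 1.47 in 3D and 1.67 in 2D in replicate 1. In replicates 2 and 3 it was 0.31 and 0.40 in 3D and 0.20 and 0.16 in 2D. The actin control went the other way in replicate 1, with 2.90 in 3D and 2.17 in 2D. Its values overlapped between groups in replicates 2 and 3, with 0.57 and 0.76 in 3D and 0.71 and 0.89 in 2D. With another 5' actin probe set, they were 1.80 and 1.79 in 3D and 1.90 and 2.07 in 2D. The part of these control differences in the results was not tested. Arrays measure RNA per amount of labelled RNA, and nothing here separates fewer transcripts per cell from fewer cells that make them.

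Of the 10 genes, 2 rose in 3D: RPH3AL, on 1 of its 2 probe sets, by 1.84-fold, and RAB3D, on its single probe set, by 1.52-fold. None of the 16 probe sets was called lower, and 14 did not pass. The 2 called are 12.5% of the 16, where 6.61% of all 42924 probe sets were called (limma adjusted p under 0.05), 3.65% as higher and 2.96% as lower. This share rests on 2 probe sets. By unadjusted p under 0.05 the 16 held 3 higher and 3 lower, beside 23.5% of all probe sets. None of the 16 differed by 1 or more on the log2 scale, a size reached by 1.98% of all probe sets. The median absolute log2 difference was 0.065 for the 16 and 0.145 for all probe sets.

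**Figure D1:**
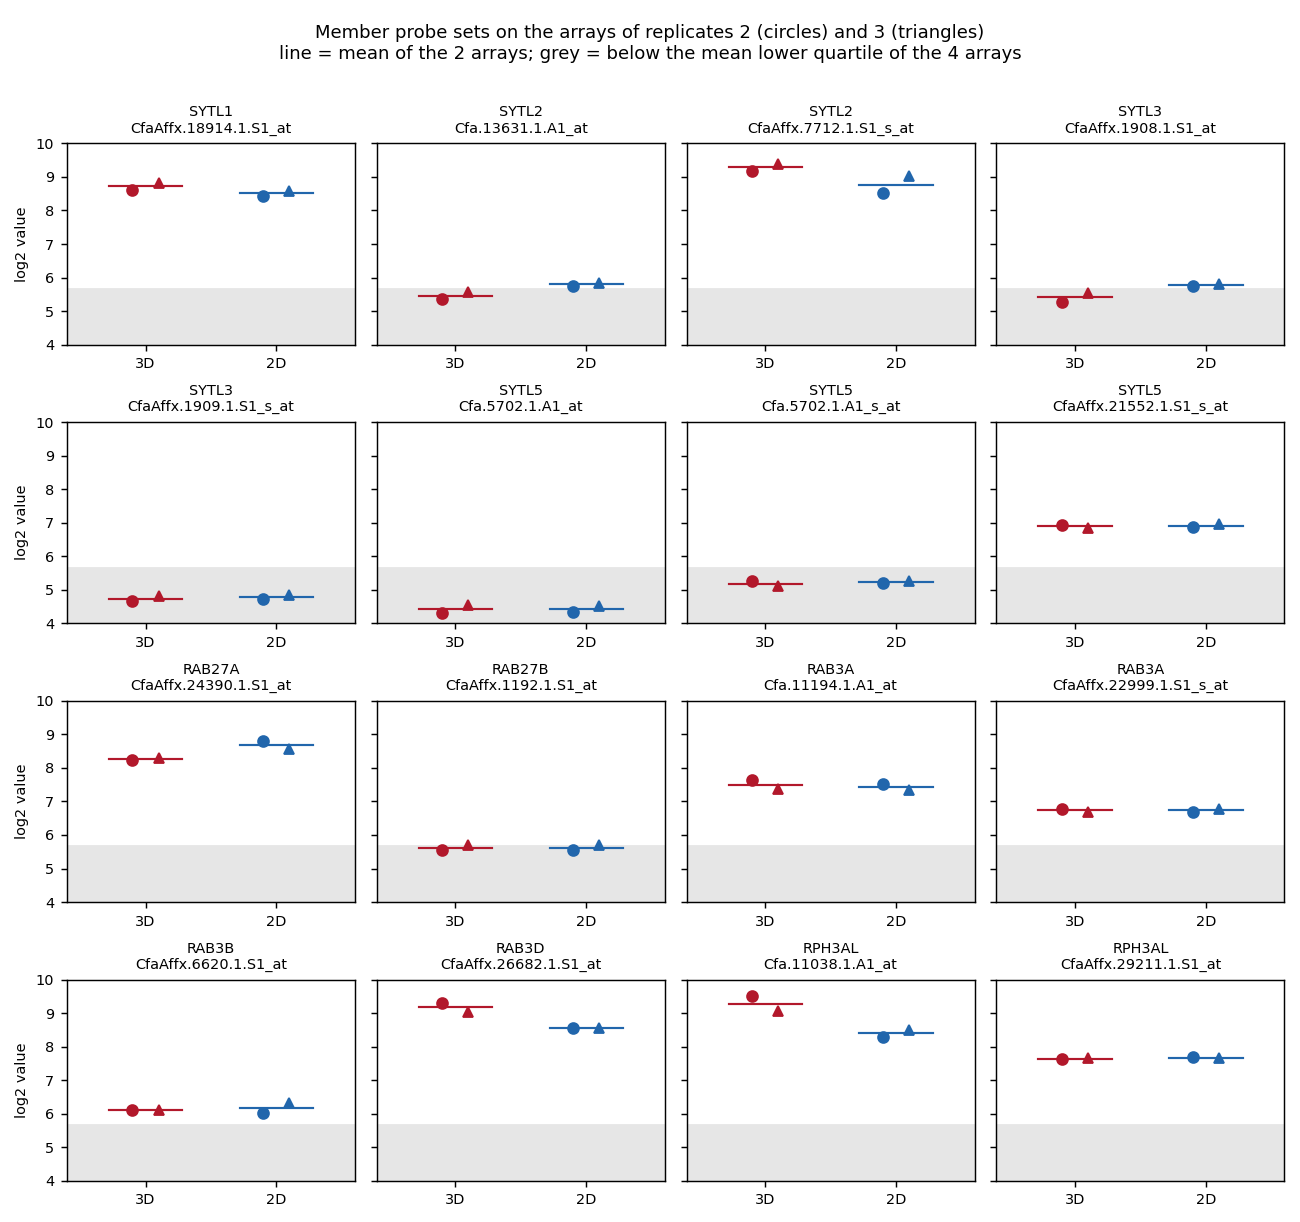
Log2 level of each of the 16 probe sets on the arrays of replicates 2 (circles) and 3 (triangles), 3D in red and 2D in blue, with lines at the mean of the 2 arrays and grey for levels below the lower quartile. RAB3D and 1 of the RPH3AL probe sets sit higher in 3D, 1 SYTL2 probe set sits higher and the other lower, and RAB27A sits lower.

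Among the synaptotagmin-like genes, the largest difference was that of 1 SYTL2 probe set, and the 2 probe sets of SYTL2 went opposite ways. SYTL2 encodes the Rab27 effector that in epithelia is tied to apical vesicle targeting. On probe set CfaAffx.7712.1.S1_s_at SYTL2 had log2 levels of 9.19 and 9.38 in 3D and 8.53 and 9.02 in 2D (replicates 2 and 3). Both 3D arrays lay above both 2D arrays, which were further apart than the 3D ones. The log2 difference was 0.51 (SE 0.179, 95% interval 0.07 to 0.95, limma adjusted p = 0.157), a 1.42-fold higher level that did not pass the threshold. The value was 0.265 without 2D replicate 2 and 0.755 without 2D replicate 3. Replicate 1 had 7.33 in 3D and 5.74 in 2D, a difference of 1.59, higher than in 92.7% of all probe sets.

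On the other SYTL2 probe set, Cfa.13631.1.A1_at, the log2 levels were 5.35 and 5.57 in 3D and 5.75 and 5.84 in 2D. The 3D values were the lower ones without overlap, and both lay under their array's lower quartile. This gave a log2 difference of -0.335 (SE 0.118, 95% interval -0.62 to -0.05, limma adjusted p = 0.158). In replicate 1 this probe set turned the other way, with 3.60 in 3D and 2.51 in 2D, a difference of 1.09 in which the 2D value lay under the lower quartile. Replicate 1 was higher in 3D on both SYTL2 probe sets, and replicates 2 and 3 on 1 of them. The mean of both probe sets differed by 0.09 (SE 0.134, limma adjusted p = 0.764).

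SYTL1, whose product is an effector of Rab27 in secretion, differed little. Its log2 levels were 8.61 and 8.83 in 3D and 8.43 and 8.59 in 2D. The 3D arrays were both higher, by a narrow margin between the nearest values. The estimate was 0.21 on the log2 scale (SE 0.124, 95% interval -0.09 to 0.51, limma adjusted p = 0.382), and replicate 1 differed by 0.05.

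SYTL3 and SYTL5 encode further members of the family, and several of their probe sets were dim. SYTL3 had log2 levels of 5.27 and 5.55 in 3D and 5.75 and 5.80 in 2D on probe set CfaAffx.1908.1.S1_at. The groups did not overlap, with both 3D values under their array's lower quartile. Their log2 difference of -0.365 did not pass (SE 0.126, 95% interval -0.67 to -0.06, limma adjusted p = 0.152), against 0.50 in replicate 1. The second SYTL3 probe set lay under the lower quartile on all 4 arrays, with 4.66 and 4.80 in 3D and 4.72 and 4.84 in 2D, and differed by -0.05 (limma adjusted p = 0.849) and by -0.69 in replicate 1. Of the 3 SYTL5 probe sets, 2 lay under the lower quartile on all 4 arrays. All 3 overlapped between groups, with log2 differences of -0.05, -0.02 and 0 and limma adjusted p from 0.848 to 1. Their replicate 1 differences were -0.12, 0.09 and 0.88. The brightest SYTL5 probe set had 6.94 and 6.85 in 3D and 6.87 and 6.96 in 2D, with a 95% interval of the difference from -0.27 to 0.23.

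The 2 Rab27 genes did not pass the threshold in either direction. RAB27A is the Rab lost in the form of human Griscelli syndrome that affects both pigment and immune granules. It had log2 levels of 8.25 and 8.31 in 3D and 8.81 and 8.56 in 2D. The 3D arrays were both lower, and replicate 2 gave the larger gap. The log2 difference was -0.405 (SE 0.121, 95% interval -0.70 to -0.11, limma adjusted p = 0.110), a 1.32-fold lower level, and replicate 1 differed by -0.17, with 6.28 in 3D and 6.45 in 2D. RAB27B, its close paralog with known roles in platelets and secretory epithelia, had 5.54 and 5.70 in 3D and the same 5.54 and 5.70 in 2D. Its log2 difference was therefore 0 (SE 0.116, 95% interval -0.28 to 0.28, limma adjusted p = 1). Of these 4 values, 2 lay under their array's lower quartile. Replicate 1 had 2.87 in 3D and 2.49 in 2D, both under the lower quartile.

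Of the Rab3 genes, RAB3D rose and RAB3A and RAB3B did not pass. RAB3D, the Rab3 of exocrine secretory granules, had log2 levels of 9.31 and 9.04 in 3D and 8.57 and 8.57 in 2D. The 3D arrays were both higher, while the 2D arrays were equal to the second decimal. The log2 difference was 0.605 (SE 0.124, 95% interval 0.30 to 0.91, limma adjusted p = 0.0450), higher than in 95.9% of all probe sets. Replicate 1 had 7.88 in 3D and 7.52 in 2D, a difference of 0.36. The call did not hold after median centring (limma adjusted p = 0.0515) or with trended and robust variance priors (0.0571). With 1 of the 4 arrays left out in turn, the log2 difference was 0.47 to 0.74.

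RAB3A, the Rab of synaptic vesicles, had log2 levels of 7.63 and 7.36 in 3D and 7.53 and 7.33 in 2D on one probe set, and 6.78 and 6.69 in 3D and 6.70 and 6.77 in 2D on the other. Both overlapped between groups, with log2 differences of 0.065 and 0 (limma adjusted p = 0.842 and 1). The 95% intervals reached 0.40 and 0.25 at most. In replicate 1 both were lower in 3D, with differences of -0.48 and -0.90. RAB3B, a Rab3 of endocrine and epithelial cells, had 6.11 and 6.12 in 3D and 6.03 and 6.33 in 2D, which overlap. Its log2 difference was -0.065 (SE 0.129, limma adjusted p = 0.831), with a 95% interval from -0.38 to 0.25. Replicate 1 had 1.14 in 3D and 3.32 in 2D, a difference of -2.18 between values that both lay under their array's lower quartile. Whether RAB3D differed from its paralogs in its response was not tested.

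RPH3AL encodes Noc2, which binds Rab3 and Rab27 through a domain like that of rabphilin and has no C2 domains. On probe set Cfa.11038.1.A1_at RPH3AL had log2 levels of 9.50 and 9.06 in 3D and 8.29 and 8.51 in 2D. The 3D values were both higher, by 1.21 in replicate 2 and by 0.55 in replicate 3. RPH3AL thus rose by 0.88 on the log2 scale (SE 0.171, 95% interval 0.46 to 1.30, limma adjusted p = 0.0401), higher than in 98.3% of all probe sets. In replicate 1 the 2 levels were close, 7.82 in 3D and 7.76 in 2D. With 1 of the 4 arrays left out in turn, the log2 difference was 0.66 to 1.10.

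The second RPH3AL probe set, CfaAffx.29211.1.S1_at, showed no such rise. It had log2 levels of 7.63 and 7.65 in 3D and 7.68 and 7.66 in 2D. All 4 values lay within 0.05 of each other, the 3D ones just lower. Here the log2 difference was -0.03 (SE 0.0967, 95% interval -0.27 to 0.21, limma adjusted p = 0.906), and replicate 1 differed by -1.01, with 4.86 in 3D and 5.87 in 2D. The mean of both RPH3AL probe sets differed by 0.425 (SE 0.109), short of the threshold (limma adjusted p = 0.0726).

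**Figure D2:**
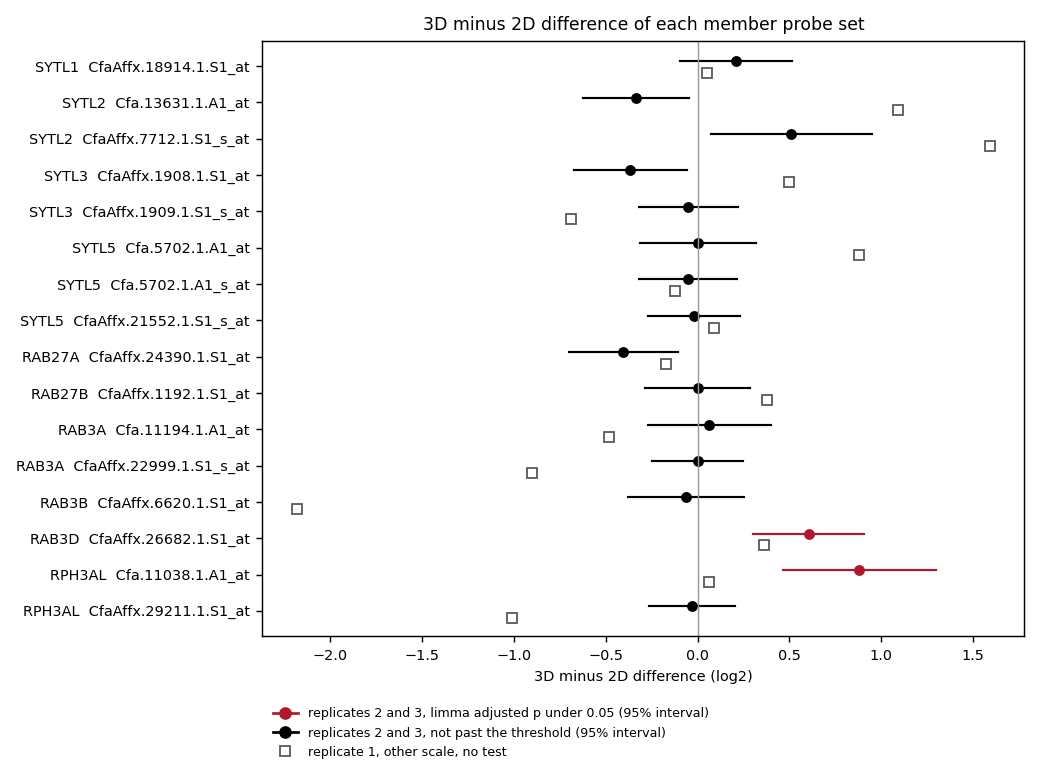
3D minus 2D log2 difference of each probe set (x axis), as the limma estimate on replicates 2 and 3 with its 95% interval (filled circles, n = 2 arrays per group, red where the limma adjusted p is under 0.05) and as the untested replicate 1 difference (open squares). RAB3D and 1 RPH3AL probe set are red, and the replicate 1 differences run from -2.18 for RAB3B to 1.59 for SYTL2.

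Probe sets of a single gene disagreed more for RPH3AL and SYTL2 than is usual on this array. Among the 4529 genes with exactly 2 probe sets, the log2 differences of the 2 sets lay a median of 0.155 apart, with an upper quartile of 0.265. For RPH3AL they lay 0.91 apart, more than in 99.1% of these genes. For SYTL2 the gap was 0.845, more than in 98.8%, and for SYTL3 it was 0.315, more than in 81.6%. RAB3A had a gap of 0.065. In replicate 1 the gaps were 1.07 for RPH3AL, 0.50 for SYTL2, 1.19 for SYTL3 and 0.42 for RAB3A. Across these genes the replicate 1 gap had a median of 0.58 and an upper quartile of 1.41, so none of the named gaps was large there. The ranks are over all these genes, called or not, so they also reflect how large the difference on a single set was. Of the SYTL2 sets, Cfa.13631.1.A1_at lay under the lower quartile on both 3D arrays of replicates 2 and 3. These gaps and ranks are descriptions of the pairs, with no test, and probe positions were not used here. Which transcripts each set reads is therefore not known here, beyond the suffix _s_at, which Affymetrix gives to sets whose probes match several transcripts.

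Replicate 1 and the other replicates shared a direction for 9 of the 16 probe sets and were opposite for 4, and for the other 3 the log2 difference of replicates 2 and 3 was 0. Across all probe sets 54.4% shared a direction. Replicate 1 was higher in 3D for 9 of the 16 and lower for 7, and 4 differed by 1 or more, beside 34.0% of all probe sets. These were both SYTL2 probe sets (higher), RAB3B and the second RPH3AL probe set (lower). In replicates 2 and 3 the groups did not overlap for 8 of the 16, 4 with 3D higher (25.1% of all probe sets) and 4 with 3D lower (26.7%). Together that is a share near the 51.8% of all probe sets.

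**Figure D3:**
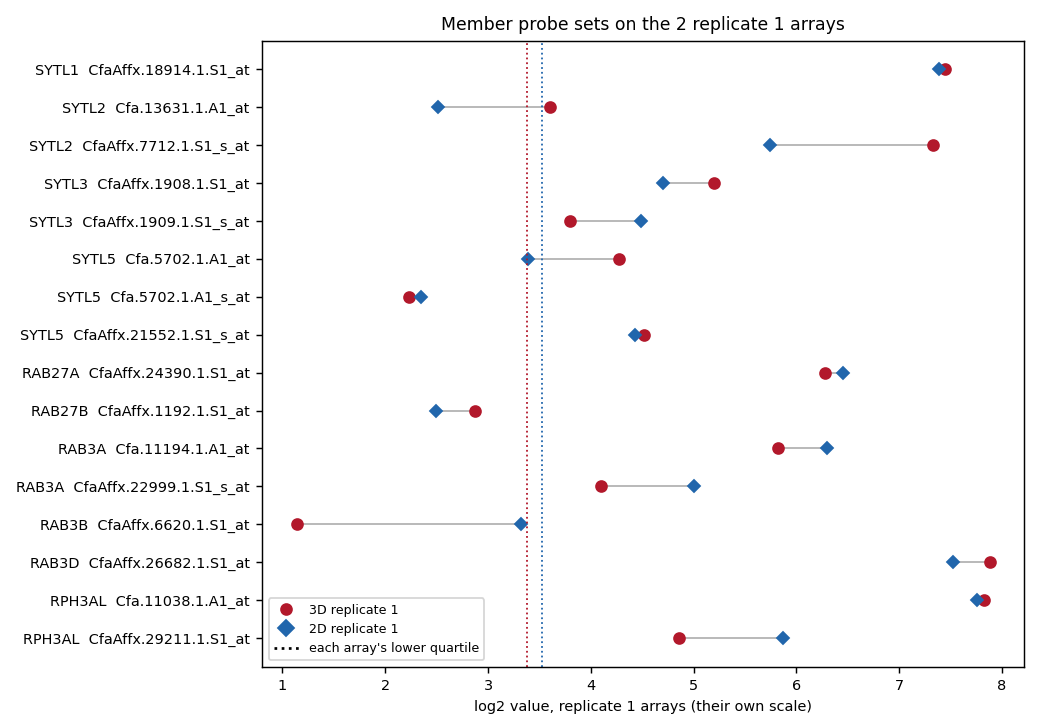
Log2 level of each of the 16 probe sets on the replicate 1 arrays, which have their own scale (3D red circles, 2D blue diamonds, dotted lines at each array's lower quartile). The largest gaps are those of RAB3B, where both values lie under the lower quartile, and of SYTL2.

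The machinery around these genes was read from 3 further lists, with each gene read on its brightest probe set. Of 19 other effectors and regulators of Rab27 and Rab3, among them the myosin linkers MLPH and MYRIP, the Rab3 GTPase-activating subunits RAB3GAP1 and RAB3GAP2 and the tethering factor UNC13D, none was called higher or lower in limma. At an unadjusted p under 0.05, TBC1D10C, a Rab GTPase-activating gene, was the 1 higher of the 19 (0.34, limma adjusted p = 0.105) and MADD, an exchange factor for Rab3 and Rab27, the 1 lower (-0.35, limma adjusted p = 0.125); both are named after their values were seen. Their median log2 difference was 0.02, against -0.01 for all 15115 genes, of which 7.28% were called, 4.17% as higher and 3.12% as lower. Of 31 partners in apical exocytosis, including the exocyst, SNARE and recycling endosome genes, none passed either, with a median of 0.14. At an unadjusted p under 0.05, 7 of the 31 differed, where 25.1% of all genes did. The 6 higher were RAB11A, RAB11B, RAB25, MYO5B, SNAP23 and EZR, with log2 differences of 0.305 to 0.415 and limma adjusted p of 0.118 to 0.204. The 1 lower was EXOC5 of the exocyst (-0.565, limma adjusted p = 0.114), and all 7 are likewise named afterwards. Other probe sets of these genes did not all share the difference. There RAB11A had 0, RAB11B 0.065, EZR 0.10 and 0.055, and MYO5B from -0.245 to 0.11. SNAP23 (0.45) and EXOC5 (-0.50) kept their direction. On the brightest sets in replicate 1, MYO5B (-1.24) and EZR (-0.28) were lower in 3D. RAB11A, RAB11B, RAB25, SNAP23 and EXOC5 were higher there. STXBP2, which encodes the syntaxin-binding protein Munc18-2 of epithelia, had log2 levels of 10.53 and 9.93 in 3D and 9.93 and 9.78 in 2D. The lower 3D value equalled the higher 2D value, and the difference was 0.375 (SE 0.202, limma adjusted p = 0.336), with 0.075 without 3D replicate 2 and 0.675 without 3D replicate 3. PODXL, the gene of the apical sialomucin podocalyxin, had 6.88 and 6.98 in 3D and 6.86 and 7.03 in 2D, with overlap and a difference of -0.015 (limma adjusted p = 0.962). In replicate 1 PODXL had 1.54 in 3D, under that array's lower quartile, and 6.14 in 2D. That difference of -4.60 lay at percentile 0.204 of all probe sets and was not tested. STX3 and CDC42 were not analysed here.

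Among 21 relatives with tandem C2 domains, SYT13 was higher in 3D, SYT17 was lower and 19 did not pass, at a median log2 difference of -0.02. At an unadjusted p under 0.05, 4 of the 21 were higher and 1 lower, where 25.1% of all genes differed. SYT13, an atypical synaptotagmin whose C2 domains lack residues that bind calcium, had log2 levels of 8.75 and 8.20 in 3D and 6.01 and 6.34 in 2D. Both 3D arrays stood well above both 2D arrays. SYT13 was 4.92-fold higher, with a log2 difference of 2.30 (SE 0.208, 95% interval 1.79 to 2.81, limma adjusted p = 0.00830), and replicate 1 had 6.59 in 3D and 5.91 in 2D, a difference of 0.68. SYT17, named B/K for its expression in brain and kidney, had 8.93 and 9.11 in 3D and 9.50 and 9.65 in 2D. It was lower on both 3D arrays, with a log2 difference of -0.555 (SE 0.118, limma adjusted p = 0.0490, and 0.0661 with trended and robust priors), and by -0.86 in replicate 1. With 1 of the 4 arrays left out in turn, the log2 difference ran from 2.02 to 2.58 for SYT13 and from -0.645 to -0.465 for SYT17. Such a fit holds a single array in 1 group, so only the size of the difference is given. Of the 126 probe sets of the 70 genes in the 3 lists, these 2 were the only ones called, 1.59% against 6.61% of all probe sets.

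**Figure D4:**
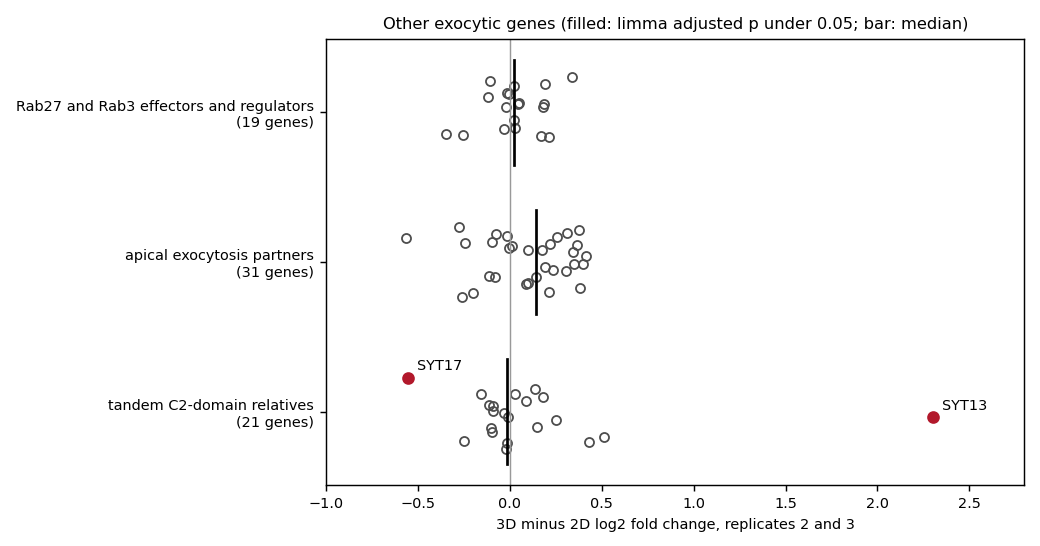
3D minus 2D log2 difference on replicates 2 and 3 (x axis) of each gene in 3 lists of related genes, filled red where the limma adjusted p is under 0.05, with a bar at each list's median. SYT13 at 2.30 and SYT17 at -0.555 are the filled points, and vertical scatter within a list has no meaning.

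The genes most like RPH3AL, RAB3D and SYTL2 were found by the distance between their 3 differences of same-numbered arrays, over 3 pairs of arrays and 28298 named probe sets. Equal numbers were not shown to pair the arrays, and the distance includes replicate 1 with its wider spread, so it only describes these values. For SYTL2 (0.66, 0.36 and 1.59 in replicates 2, 3 and 1) these included ZDHHC12, a palmitoyltransferase gene (distance 0.0755), and IFT22, an intraflagellar transport gene (0.0927). For RPH3AL (1.21, 0.55 and 0.06) they were BACE1, the beta-secretase (0.0781), FHIT (0.131) and STOM, which encodes stomatin (0.134). For RAB3D (0.74, 0.47 and 0.36) they were MTFR1L (0.0300), ABHD10 (0.0490) and IDH2, a mitochondrial isocitrate dehydrogenase gene (0.0640). With so few arrays such neighbours are many: 144 other probe sets lay within 0.25 of RAB3D, 48 of SYTL2 and 29 of RPH3AL.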

How the data were processed

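The authors deposited 1 log2 value per probe set and array from Affymetrix canine arrays hybridized with biotin-labelled cRNA made from 4 µg of Trizol-extracted total RNA, per the labels' protocols. RMA and limma are named in the submitters' processing notes, without versions. The log2 values of the replicate 1 arrays lie on another scale than the other 4 deposited columns: 413 (3D) and 246 (2D) of them are below 0. On both replicate 1 arrays, 100% of the values under 1 were the log2 of a multiple of 0.1, down to -3.32. The lowest values of the other 4 columns were 3.39 to 3.44. How the replicate 1 values were made is not given.

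Of 43035 probe sets 111 controls were left out. The platform annotation gave 1 symbol for 29254 probe sets, several for 439, and 13231 are unnamed here; all 10 genes were found by Entrez ID, with the same symbol, in the gene table of the assembly UU_Cfam_GSD_1.0, used for names only. Differences were tested with lmFit and eBayes of limma 3.58.1 (R 4.3.3), two-sided, on replicates 2 and 3, without a block or a filter on level. P-values were adjusted by Benjamini-Hochberg across 42924 probe sets and called under 0.05. The fit was tested on simulated data. Named are every probe set of the 10 genes, list genes past the threshold, STXBP2 and PODXL, and the 3 genes nearest to each of SYTL2, RPH3AL and RAB3D, of which 1 is not reported here; EPCAM, CLDN2 and the list genes so marked in the text were named after their values were seen. Members, lists, tests and alternatives were chosen with earlier results of these data known. The labels call the replicates biological without naming separate cultures. P-values thus rest on the spread between these arrays, with variance information pooled across probe sets, and the small number of arrays limits precision. Figures were drawn with matplotlib 3.10.9 in Python 3.11.15 with pandas 2.3.3.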

Additional observations from a re-analysis of the deposited data

How the results depend on the processing

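The 2 calls among the 10 genes depended on which arrays entered the fit, on the replicate block and in part on the scaling and variance priors. With all 6 arrays in 1 limma fit as deposited, 0 of 42924 probe sets passed (105 at an unadjusted p under 0.05), including 0 of the 16 and 0 of the list genes. After quantile normalization of all 6 arrays, 2 passed overall without a block and 0 with the replicate block (1775 and 3517 at an unadjusted p under 0.05), and 0 of the 16 in both. The replicate block on replicates 2 and 3 also left 0 calls, with 8325 at an unadjusted p under 0.05 and a limma adjusted p of 0.170 for RAB3D and 0.192 for RPH3AL. Arrays of the same number did not deviate together (r = 0.00127 over probe sets), and the main fit did not pair them by number. With 2 arrays per group this correlation is a single comparison, so it cannot show that the samples were unpaired. Leaving out 1 array of the 4 left 0 calls each time, with 4683 to 10892 at an unadjusted p under 0.05 overall and 1 to 4 among the 16. The cause was not tested; each such fit has fewer arrays. Median centring and trend and robust priors each left 1 of the 16 (RPH3AL, with a limma adjusted p of 0.0453 and 0.0433), and averaging the probe sets of each gene left 1 gene (RAB3D, 0.0347). Trend and robust priors left 1 of the 2 list genes, SYT13. Cyclic loess and leaving out the dimmest 25% of probe sets kept both calls.

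Some differences that had not passed changed sign. On all 6 arrays as deposited, those were SYTL2 on Cfa.13631.1.A1_at (0.14, against -0.335 on replicates 2 and 3), SYTL5 on CfaAffx.21552.1.S1_s_at (0.0167) and RAB3A on Cfa.11194.1.A1_at (-0.117). Quantile normalized, with or without the block, they had 0.0706, 0.0425 and -0.0789, and SYTL5 on Cfa.5702.1.A1_s_at 0.0161. With 1 array left out in turn, the log2 differences ran from -0.12 to 0.02 for SYTL3 on CfaAffx.1909.1.S1_s_at, from -0.13 to 0.03 and from -0.065 to 0.025 for the same SYTL5 sets (Cfa.5702.1.A1_s_at first), from -0.07 to 0.20 for RAB3A on Cfa.11194.1.A1_at, from -0.215 to 0.085 for RAB3B and from -0.10 to 0.07 for PODXL. Signals under the lower quartile on 2 or more of the 4 arrays limit what both SYTL3 sets, RAB27B, SYTL2 on Cfa.13631.1.A1_at and 2 of the 3 SYTL5 sets can show.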
